A study of Chlamydomonas reinhardtii with 9 samples.

Results

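Chromosome 14 of the green alga Chlamydomonas reinhardtii carried 5172 of the 117666 chromatin immunoprecipitation peaks deposited for PAF1-HA and SKIP-HA. All peaks listed on that chromosome in 6 libraries were taken, without a filter. The chromosome was chosen by its number of peaks per length, the highest of 17 chromosomes in earlier results of these data. Its density and rank are therefore descriptions without a test. The same holds for coverage and for regions and domains per length, which go along with the number of peaks. Chlamydomonas cells of the CC5325 background were cross-linked with formaldehyde, sonicated and precipitated with an anti-HA antibody, which binds a short epitope tag fused to the protein, and the recovered DNA was sequenced (ChIP-seq). The labels give 3 libraries of a line named for PAF1 (genotype or cell type paf1), 3 of a line named for SKIP (skip) and 3 of the wild type. The design text describes the first pair of lines as CrPAF1-HA and CrSKIP-HA. It does not say whether they also carry a mutation, which promoter drives the tagged protein or how many transformants each line represents. Peaks of the wild type were not analysed here, and the signal that the antibody gives in untagged cells is therefore not subtracted from any value.

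PAF1 gives its name to the PAF1 complex, which accompanies elongating RNA polymerase II and promotes ubiquitination and methylation of histones on transcribed genes. SKIP, of the SNW-domain family, takes part in the spliceosome and in transcription. In Arabidopsis, SKIP associates with the PAF1 complex at the flowering repressor gene FLC. The series title joins both proteins with CDKB, a class of cell-cycle kinases found in plants and green algae. A peak is an interval in which the caller found more fragments than its background, and a missing peak is a missing call, not a measured absence of protein.

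Every peak on chromosome 14 was an interval of exactly 400 bp with no score. PAF1-HA replicates 1, 2 and 3 listed 746, 792 and 780 peaks there, and SKIP-HA replicates 1, 2 and 3 listed 850, 949 and 1055. All SKIP-HA libraries lay above all PAF1-HA libraries. The means were 773 ± 23.9 and 951 ± 102 (SD, n = 3), a ratio of 1.23. Numbers and shares of peaks rest on the same values as the density that chose the chromosome, so no test is given for them. Whole lists held 16329 to 17645 peaks for PAF1-HA and 19709 to 24680 for SKIP-HA, so the higher SKIP-HA number went along with longer lists. The read depth behind the lists is unknown, and whether replicates came from separate cultures is not given, so p-values measure the spread between libraries, which may be technical. The labels describe replicate 3 of each line in other fields than the remaining replicates, and its processing notes do not name the peak caller MACS3, which those of replicates 1 and 2 do. Within replicates 1 and 2 the difference was 130.5 peaks, against 179 over all libraries. Replicate 3 alone gives 1 library per line.

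As a share of the peaks on all 17 chromosomes, chromosome 14 stood higher in PAF1-HA than in SKIP-HA. The share was 4.59% (95% Wilson interval 4.28 to 4.92), 4.68% (4.37 to 5.01) and 4.44% (4.15 to 4.76) in PAF1-HA replicates 1, 2 and 3. It was 4.33% (4.05 to 4.62), 4.27% (4.01 to 4.54) and 4.29% (4.04 to 4.55) in SKIP-HA replicates 1, 2 and 3. The groups did not overlap, although the intervals of single libraries, which cover counting error only, did. The difference of the means, SKIP-HA minus PAF1-HA, was -0.275 percentage points. Within replicates 1 and 2 it was -0.335.

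Per length, chromosome 14 was the densest chromosome in 5 of 6 libraries and the second in SKIP-HA replicate 3. The length of a chromosome was taken as the end of its last peak in any library, 4201078 on chromosome 14. Densities were 178, 189 and 186 peaks per Mb in PAF1-HA replicates 1, 2 and 3, and 202, 226 and 251 in SKIP-HA replicates 1, 2 and 3. In PAF1-HA the chromosome stood clear of the next one, with 184 ± 5.68 peaks per Mb against 161 ± 5.85 on chromosome 16 (SD, n = 3). In SKIP-HA the margin was smaller, with a mean of 226 ± 24.4 beside 223 ± 29.2 on chromosome 4, 219 ± 26.2 on chromosome 5 and 218 ± 22.6 on chromosome 16 (SD, n = 3). Within each SKIP-HA library chromosome 14 was denser than chromosomes 5 and 16, though in replicate 2 it had 226 peaks per Mb against 225 on chromosome 5. Chromosome 4 was denser in replicate 3 alone, with 255 peaks per Mb against 251. The density relative to the other 16 chromosomes together was 1.19-fold to 1.26-fold in PAF1-HA libraries and 1.14-fold to 1.16-fold in SKIP-HA libraries. Peaks covered 7.16% ± 0.238 of the chromosome in PAF1-HA, against 4.04% to 6.32% on the others. In SKIP-HA they covered 8.86% ± 0.954, against 5.48% to 8.71% (SD, n = 3).

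**Figure D1:**
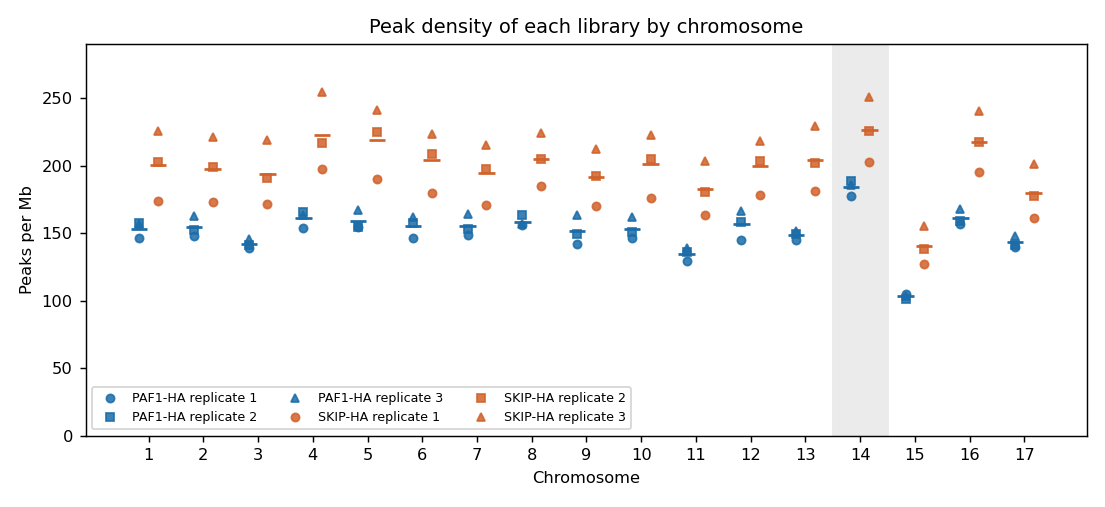
Peaks per Mb on each of 17 chromosomes, with 1 point per library (blue PAF1-HA, orange SKIP-HA, marker shape for the replicate), short bars for the means of 3 libraries and chromosome 14 shaded. The 3 PAF1-HA points on chromosome 14, at 178 to 189, lie above every PAF1-HA point elsewhere, while the SKIP-HA points, at 202 to 251, lie close to those of chromosomes 4, 5 and 16.

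The high density was not confined to a few windows, but most of the denser windows lay in the blocks described below. Of its 42 full windows of 100 kb, 27 held more peaks, by the mean over 6 libraries, than the median window of the other 16 chromosomes. The median window held 19.9 peaks on chromosome 14, the highest median of the 17 chromosomes, against 17.3 over the 1070 full windows elsewhere. By library, between 23 (SKIP-HA replicate 1) and 32 (PAF1-HA replicate 2) of the 42 windows lay above that library's median elsewhere. The coefficient of variation between windows was 0.397, the seventh of 17 chromosomes, so windows on chromosome 14 were not unusually uneven. In the top 5% of windows genome-wide, with at least 29.1 peaks, were 4 of the 42 on chromosome 14 and 8 of the 80 on chromosome 16.

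Windows above the outside median lay mostly in a left and a right block. The right block ran over 14 windows from 2.4 to 3.8 Mb, with a mean of 22.1 PAF1-HA and 28.1 SKIP-HA peaks per window. The left block ran over 7 windows from 1.4 to 2.1 Mb, with 19.1 and 26.6 peaks.

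The densest window of chromosome 14 lay in the right block, at 3.6 to 3.7 Mb. It held 38, 46 and 38 peaks in PAF1-HA replicates 1, 2 and 3, and 44, 44 and 46 in SKIP-HA replicates 1, 2 and 3. The libraries of both lines overlapped there. The window at 0.5 to 0.6 Mb came second, with 34, 38 and 42 PAF1-HA peaks and 36, 45 and 44 SKIP-HA peaks, and stood alone between sparser neighbours. Next were 3.5 to 3.6 Mb, with means of 33.7 ± 2.52 PAF1-HA and 37.7 ± 7.37 SKIP-HA peaks, and 3.4 to 3.5 Mb, with 30.3 ± 7.64 and 35.0 ± 5.57 (SD, n = 3). The fifth, at 1.9 to 2.0 Mb, held 26 ± 6.56 and 29.7 ± 5.13 (SD, n = 3).

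Peaks were sparse in a trough near the middle and towards the right end. At 2.2 to 2.3 Mb PAF1-HA libraries had 0, 2 and 2 peaks and SKIP-HA libraries 2, 1 and 1, and the next window to the left, at 2.1 to 2.2 Mb, had 3 to 6 and 6 to 10. No library listed a peak between 2175118 and 2294825, a stretch of 119.7 kb. It was the longest such stretch on the chromosome and the ninth of 17 when each chromosome's longest stretch was compared. The next longest ran from 2880693 to 2928841 (48.1 kb), 4001046 to 4039693 (38.6 kb), 2100832 to 2126872 (26.04 kb) and 652858 to 676178 (23.3 kb). Chromosome 14 had the fewest stretches over 10 kb without a peak per length, at 12.8 per Mb, against 14.9 to 20.4 per Mb on the others. The remaining sparse windows were 4.0 to 4.1 Mb, with 5 peaks in each PAF1-HA library and 6, 10 and 6 in SKIP-HA replicates 1, 2 and 3, then 4.1 to 4.2 Mb with 11 to 14 peaks in every library, and 0.9 to 1.0 Mb with 10 to 21.

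**Figure D2:**
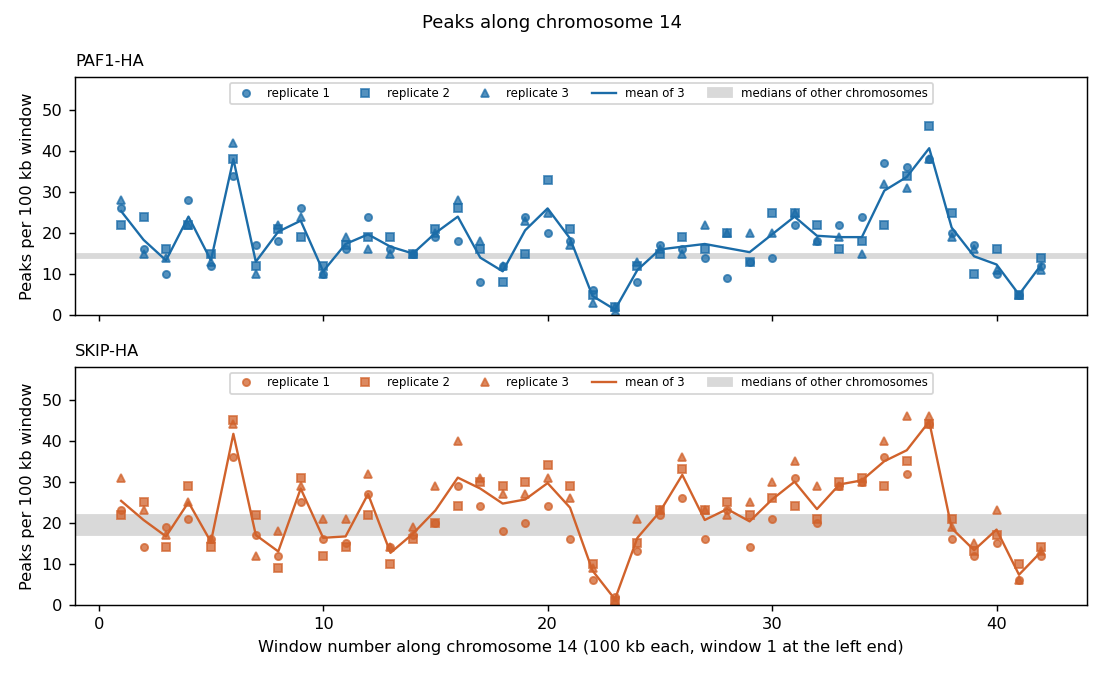
Peaks per 100 kb window (vertical axis) against window number from the left end of chromosome 14 (horizontal axis), for PAF1-HA above and SKIP-HA below, with points for 3 replicates, a line for their mean and a grey band for the range of the 3 libraries' medians on the other chromosomes. Both profiles share peaks at windows 6 and 37 and a trough at window 23, where each library had at most 2 peaks.

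Neighbouring peaks lay close together in both lines. Some intervals overlapped the next peak of the same library, from 59 in PAF1-HA replicate 3 to 80 in SKIP-HA replicate 3. Such peaks count as clustered below. The percentage of peaks with another peak centre of the same library within 1 kb was 51.7, 55.9 and 50.4 in PAF1-HA replicates 1, 2 and 3, and 50.7, 52.8 and 54.3 in SKIP-HA replicates 1, 2 and 3. The groups overlapped, with means of 52.7% ± 2.89 and 52.6% ± 1.81 (SD, n = 3, two-sided exact permutation p = 1). The sign of the difference of -0.0835 percentage points turned without PAF1-HA replicate 2 (1.54), without SKIP-HA replicate 1 (0.865) and with a distance of 2 kb (0.925). Chromosome 14 ranked second of 17 by this percentage in PAF1-HA and twelfth in SKIP-HA. The medians of the other chromosomes were 49.96% in PAF1-HA and 53.4% in SKIP-HA. These percentages are not adjusted for the longer SKIP-HA lists, so the test does not show that the lines cluster equally. The median spacing of neighbouring centres was 2.01 ± 0.126 kb in PAF1-HA and 1.93 ± 0.187 kb in SKIP-HA (SD, n = 3), against chromosome medians of 2.54 and 2.12 kb elsewhere.

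The share of a library's peaks in each 100 kb window was then compared between the lines with limma over all 1068 windows that averaged at least 5 peaks, 41 of them on chromosome 14. The log2 of the SKIP-HA share over the PAF1-HA share was below 0 in 26 and above 0 in 15 of the 41, with a median of -0.08, against 0.01 over all 1068 windows. The shares of the lines did not overlap, with PAF1-HA higher, in 6 windows, where 10% of all windows did so. They did not overlap, with SKIP-HA higher, in 3 windows, where 9.93% did. At an adjusted p under 0.05, 1 of the 41 was called, the window at 0.7 to 0.8 Mb with PAF1-HA higher, against 0.187% of all windows in either direction and 0.0936% in each direction. Since windows of the chromosome were singled out by this same contrast, nothing is read from these counts, and the windows are described by their values. Of the chromosome's 72 windows of 50 kb none (0) was called, and without PAF1-HA replicate 2 or SKIP-HA replicate 2 the number of 100 kb windows called was 0 as well.

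**Figure D3:**
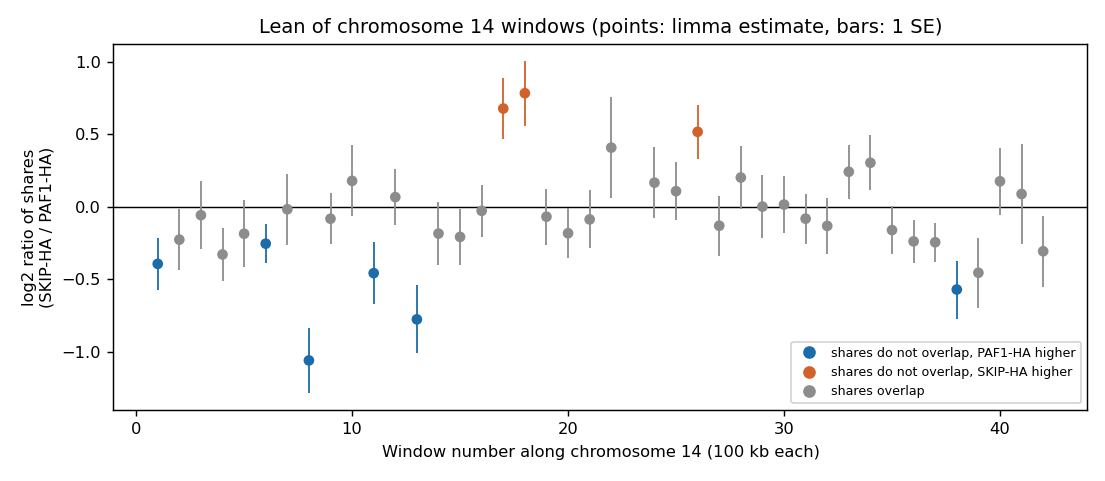
Log2 of the SKIP-HA over the PAF1-HA share of peaks (vertical axis, points with bars of 1 SE from limma) in the 41 tested 100 kb windows of chromosome 14, by window number (horizontal axis). Blue and orange mark windows where the shares of 3 PAF1-HA and 3 SKIP-HA libraries do not overlap; the lowest point, at -1.06, is window 8 and the highest, at 0.78, is window 18.

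The window that leaned furthest to PAF1-HA was 0.7 to 0.8 Mb. PAF1-HA replicates 1, 2 and 3 had 18, 21 and 22 peaks there, and SKIP-HA replicates 1, 2 and 3 had 12, 9 and 18. The log2 ratio of shares was -1.06 (SE 0.225), a ratio of 0.480, and it ranged from -1.23 to -0.83 with 1 library left out. In windows shifted by 50 kb it was -0.33 at 0.65 to 0.75 Mb and -0.55 at 0.75 to 0.85 Mb, and neither was called. The difference was concentrated in the middle of the window. Between 715445 and 778963, a stretch of 63.5 kb, no SKIP-HA library listed a peak, while PAF1-HA replicates 1, 2 and 3 listed 8, 4 and 13. No other stretch between neighbouring SKIP-HA peaks, of 34889 on the 17 chromosomes, held as many PAF1-HA peaks as these 25. This ranking by number takes no account of length, and does not mean that PAF1-HA peaks were dense here. The next stretch, on chromosome 6, held 23 PAF1-HA peaks in 8.5 kb. Stretches of this kind were looked for after the values were seen. On either side of the 63.5 kb stretch SKIP-HA libraries listed peaks again. The 10 kb at 0.79 to 0.80 Mb held 17 peaks summed over the PAF1-HA libraries and 17 over the SKIP-HA libraries. The sums were 5 and 2 at 0.78 to 0.79 Mb, and 5 and 10 at 0.70 to 0.71 Mb. They are not adjusted for the longer SKIP-HA lists.

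In the stretch without SKIP-HA peaks, peaks fell into 14 merged regions (peaks of any library joined where they overlap by at least 1 bp). Of these, 4 had a peak in all 3 PAF1-HA libraries, 3 in a pair of libraries and 7 in 1 library. The regions in all 3 lay at 736332 to 736746, 737014 to 737495, 757324 to 757736 and 776418 to 776850. Their 3 centres lay within 15, 82, 13 and 33 bp of each other. Another region with peaks in every PAF1-HA and no SKIP-HA library, at 783408 to 783935, lay outside the stretch. The window held 1 region of the opposite kind, at 704000 to 704703. A region at 778957 to 779392, at the right edge of the stretch, had 1 peak in each of the 6 libraries, with all centres within 36 bp.

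Leans to PAF1-HA were also seen at 1.2 to 1.3 Mb, 3.7 to 3.8 Mb, 1.0 to 1.1 Mb and 3.8 to 3.9 Mb. At 1.2 to 1.3 Mb PAF1-HA libraries had 16, 19 and 15 peaks and SKIP-HA libraries 14, 10 and 14, with a log2 ratio of -0.78 (SE 0.233). At 3.7 to 3.8 Mb they had 20, 25 and 19 against 16, 21 and 19, with a log2 ratio of -0.57 (SE 0.200). Shares did not overlap in either window. At 3.8 to 3.9 Mb shares overlapped, with a log2 ratio of -0.46 (SE 0.240).

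The window at 1.0 to 1.1 Mb had 16, 17 and 19 PAF1-HA peaks and 15, 14 and 21 SKIP-HA peaks. These numbers overlapped while the shares of the libraries did not, with a log2 ratio of -0.46 (SE 0.214). Its lean came with a compact block of PAF1-HA peaks. Between 1001759 and 1013359 (11.6 kb) PAF1-HA replicates 1, 2 and 3 listed 6, 6 and 9 peaks and no SKIP-HA library listed any. By the number of PAF1-HA peaks this stretch had rank 3 of the 34889, behind the stretch at 715445 and a stretch on chromosome 6. In the rest of the window every SKIP-HA library listed more peaks than any PAF1-HA library, without adjustment for the longer SKIP-HA lists. The 11.6 kb stretch held 3 regions with peaks in all PAF1-HA libraries, at 1005376 to 1008384 with 11 peaks, 1009187 to 1009745 with 3 and 1010221 to 1011125 with 4.

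The window that leaned furthest to SKIP-HA was 1.7 to 1.8 Mb. PAF1-HA libraries had 12, 8 and 12 peaks there and SKIP-HA libraries 18, 29 and 27, without overlap. The log2 ratio of shares was 0.78 (SE 0.224), a ratio of 1.72, and it ranged from 0.60 to 0.91 with 1 library left out. In windows shifted by 50 kb it was 0.47 at 1.65 to 1.75 Mb and 0.35 at 1.75 to 1.85 Mb. Sums over the libraries of a line, which are not adjusted for the longer SKIP-HA lists, reached 4 in PAF1-HA and 11 in SKIP-HA at 1.76 to 1.77 Mb, and 0 and 8 at 1.79 to 1.80 Mb. They were close, at 12 and 15, at 1.73 to 1.74 Mb. At 1.70 to 1.71 Mb SKIP-HA replicate 2 alone listed 6 of the 7 SKIP-HA peaks. The single region here with peaks in all 3 SKIP-HA and no PAF1-HA library lay at 1790104 to 1791328, with 5 peaks.

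The neighbouring window at 1.6 to 1.7 Mb leaned the same way, with 8, 16 and 18 PAF1-HA peaks and 24, 30 and 31 SKIP-HA peaks and a log2 ratio of 0.68 (SE 0.213). Leaving out 1 library moved that value between 0.36 and 0.86, and it was lowest without PAF1-HA replicate 1, the library with 8 peaks. At 2.5 to 2.6 Mb PAF1-HA libraries had 16, 19 and 15 peaks and SKIP-HA libraries 26, 33 and 36, with a log2 ratio of 0.52 (SE 0.185). Both windows were without overlap of shares. The next by size, 2.1 to 2.2 Mb (0.41, SE 0.345) and 3.3 to 3.4 Mb (0.30, SE 0.188), had overlapping shares. The stretch between neighbouring PAF1-HA peaks with the most SKIP-HA peaks on chromosome 14, at 2519890 to 2535831 (15.9 kb), had 3, 6 and 4 SKIP-HA peaks and ranked 29 of 26794.

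**Figure D4:**
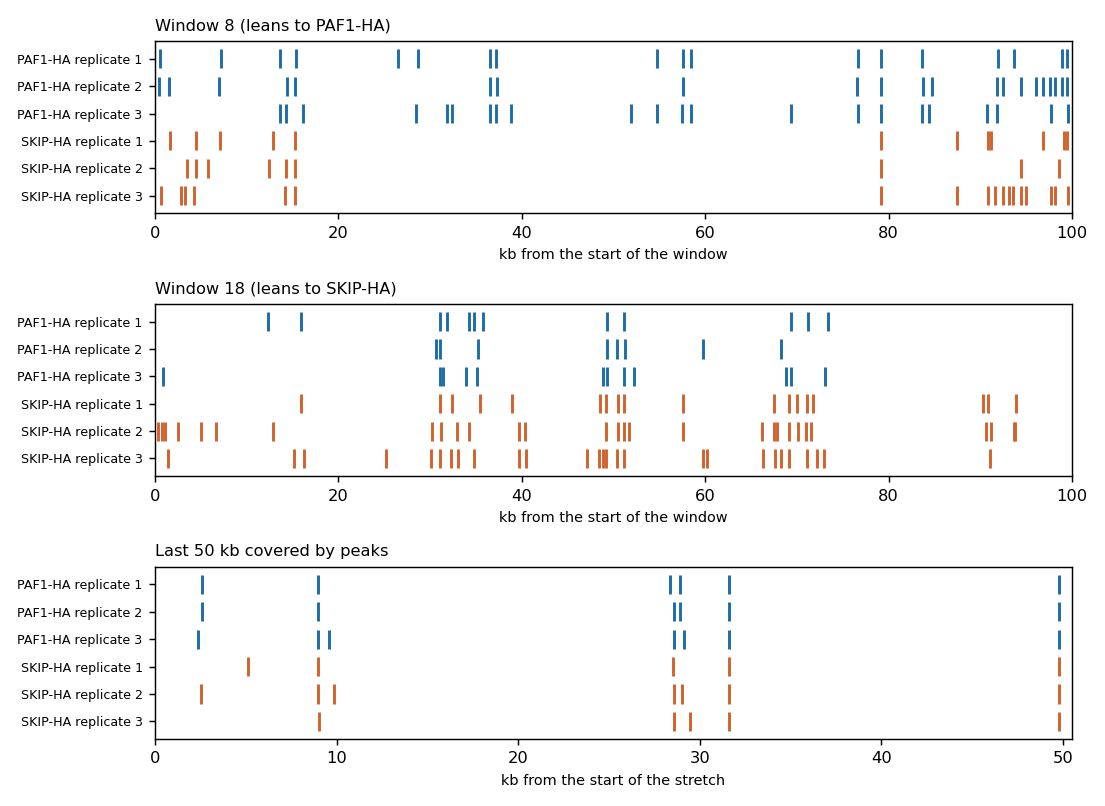
Peak centres (ticks) of each of 6 libraries (rows, blue PAF1-HA, orange SKIP-HA) by distance in kb from the left edge of window 8, of window 18 and of the last 50 kb covered by peaks on chromosome 14. In window 8 the SKIP-HA rows are empty over 63.5 kb where PAF1-HA rows hold 25 peaks, and in the last 50 kb the ticks of all 6 rows stand in line at the right edge.

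When overlapping peaks were merged across the 6 libraries, 1590 regions resulted on chromosome 14, or 378.5 per Mb, the highest density of regions among 17 chromosomes. Of these, 526 (33.1%) were found in 1 library, 308 in 2, 270 in 3, 210 in 4, 152 in 5 and 124 in 6. Both lines had a peak in 842 regions (53.0%), against 50.3% of the 35356 regions elsewhere, the second highest share after chromosome 15. PAF1-HA peaks alone, in any number of libraries, made 225 regions (14.15%), against 14.27% elsewhere, which had rank 11 of 17. SKIP-HA peaks alone made 523 (32.9%), against 35.4% elsewhere, which had rank 16.

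A peak in all 6 libraries was found in 124 regions, or 7.80% of the chromosome's regions, where the background over all chromosomes was 8.19%. The other chromosomes ranged from 6.55% (chromosome 3) to 13.6% (chromosome 15), and chromosome 14 ranked 13 of 17. Its density of peaks thus came without a raised share of regions common to all libraries. Per length it had rank 4, with 29.5 such regions per Mb. These regions were unevenly placed, with 12 in the densest window at 3.6 to 3.7 Mb, 9 at 1.9 to 2.0 Mb and 8 in the first 100 kb, a median of 2 per full window and 0 in 4 of 42. Their median width was 795.5 bp, against 823 bp elsewhere.

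Regions found in every PAF1-HA and no SKIP-HA library took a larger share on chromosome 14 than on any other chromosome, although their SKIP-HA counterparts were more numerous there. A peak in 3 PAF1-HA and 0 SKIP-HA libraries was found in 25 regions, or 1.57%, against a background of 0.834%. The shares on the other chromosomes ranged from 0.484% to 1.07%. Chromosome 14 thus held 8.12% of all such regions. They lay in 14 windows, with 5 at 0.7 to 0.8 Mb, 3 at 1.0 to 1.1 Mb and 3 at 1.5 to 1.6 Mb. The opposite kind numbered 36, or 2.26%, against a background of 2.49%, and was spread over 24 windows. These counts come from the same lists and the same contrast as the choice of windows and add no independent evidence of a lean. Without 1 library the PAF1-HA count lay between 35 and 46 and the SKIP-HA count between 53 and 94, since fewer libraries were then required. The PAF1-HA count moved by over 1.5 times without any PAF1-HA replicate or SKIP-HA replicate 3, and the SKIP-HA count without any library other than PAF1-HA replicate 2.

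Besides those in the window at 0.7 to 0.8 Mb, the PAF1-HA regions with the closest centres and 1 peak per library lay at 3208717 to 3209136, within 20 bp, and 228619 to 229042, within 24 bp. For SKIP-HA the closest centres, within 6 bp, were those at 2526091 to 2526496. Others lay at 3008822 to 3009262 (41 bp), 3674009 to 3674469 (61 bp), 1375514 to 1376012 (99 bp) and 2980700 to 2981203 (104 bp). The region at 2526091 lies in the stretch without PAF1-HA peaks described above, in a window that leaned to SKIP-HA.

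**Figure D5:**
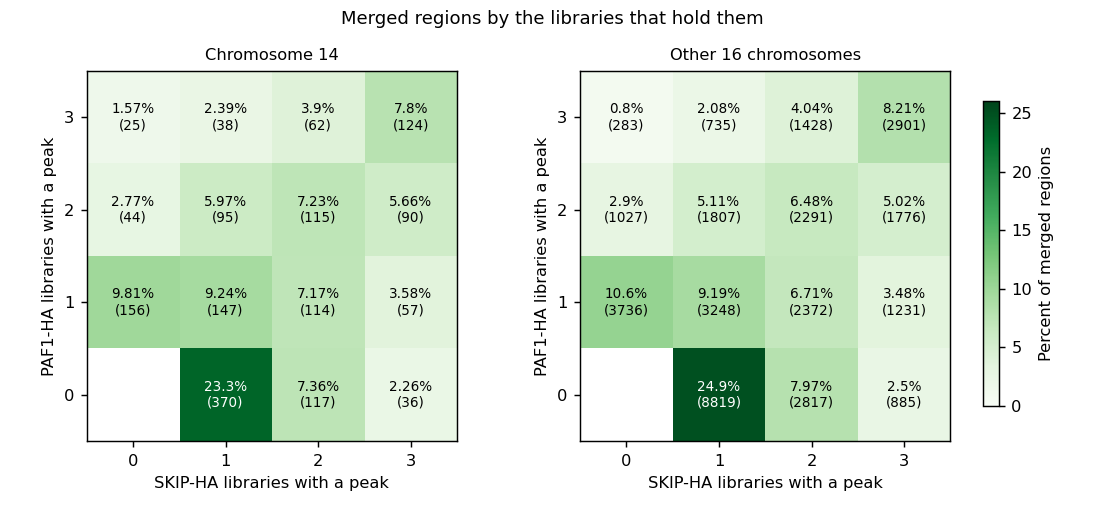
Percent of merged regions (colour and upper figure in each cell, with the number of regions in brackets) by the number of PAF1-HA libraries (vertical axis) and SKIP-HA libraries (horizontal axis) with a peak, for chromosome 14 and the other 16 chromosomes. The cell of 3 PAF1-HA and 0 SKIP-HA libraries holds 1.57% on chromosome 14 and 0.800% elsewhere, and the cell of all 6 holds 7.80% and 8.21%.

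At the right end of the chromosome the libraries coincided almost to the base. The last peak ended at 4201074, 4201078 and 4201074 in PAF1-HA replicates 1, 2 and 3, and at 4201076, 4201073 and 4201076 in SKIP-HA replicates 1, 2 and 3. These ends spanned 5 bp, the smallest span of any chromosome, where the others ranged from 8 to 40694 bp. The last region had peaks of all 6 libraries on chromosome 14 and on 9 of the other 16 chromosomes. It lay at 4200674 to 4201078, with 1 peak of each library and centres within 5 bp, the closest agreement among the 52 regions of chromosome 14 with 1 peak in each of 6 libraries. Whether the sequence of the files' build continues past it is not given in the sources used here.

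The last 50 kb held 7 merged regions, against a median of 14.5 on the other chromosomes, but 4 of them were in all 6 libraries, against a median of 2 and a range of 0 to 6. PAF1-HA libraries listed 6, 6 and 7 peaks there and SKIP-HA libraries 5, 7 and 5. The other 3 regions in all libraries lay at 4182506 to 4182911, with centres within 6 bp, at 4179248 to 4180716, with 11 peaks, and at 4159825 to 4160279, with centres within 55 bp. At the left end the first region, at 829 to 1343, was also in all 6 libraries, as on 8 of the other 16 chromosomes. Its first positions spanned 115 bp.

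Away from the end, the closest agreement was found at 2486556 to 2486966, with centres within 11 bp, and a neighbouring region at 2486986 to 2487425 had centres within 40 bp. Further close regions lay at 29855 to 30273 (19 bp), 3360585 to 3361010 (26 bp), 519641 to 520070 (30 bp), 485312 to 485747 (36 bp), 778957 to 779392 (36 bp) and 955392 to 955828 (37 bp). Over all 52 such regions the median span of centres was 91.0 bp, against 79.5 bp for 1302 regions elsewhere. The widest regions in all libraries lay at 3434884 to 3438113 (3230 bp) and 3579319 to 3582543 (3225 bp), each with 20 peaks.

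Libraries of a line resembled each other on chromosome 14 about as they did elsewhere. The Jaccard index, the bases covered in both libraries over those covered in either, was 0.217, 0.226 and 0.221 for the PAF1-HA pairs and 0.215, 0.215 and 0.207 for the SKIP-HA pairs. Pairs of different lines ranged from 0.184 to 0.220, with a mean of 0.194 ± 0.0117 (SD over 9 pairs). The highest of these, PAF1-HA replicate 1 with SKIP-HA replicate 1, lay above every SKIP-HA pair and above the lowest PAF1-HA pair. The mean within lines exceeded the mean between lines by 0.0223 (one-sided exact permutation over 10 splits, p = 0.1, the smallest possible, Benjamini-Hochberg adjusted 0.133 over 4 comparisons of libraries). Those 4 include the numbers and shares of peaks, for which no test is given. Chromosome 14 ranked seventh to ninth of 17 for the 3 kinds of pairs. Overlapping peaks of a pair of libraries had centres a median of 92.2 ± 12.0 bp apart between lines (SD over 9 pairs), 92.0 ± 4.36 bp within PAF1-HA and 101 ± 4.73 bp within SKIP-HA (SD over 3 pairs each).

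Consensus regions, with peaks in at least 2 of 3 libraries of a line, numbered 595 for PAF1-HA and 729 for SKIP-HA. At 142 and 174 per Mb both were the densest of the 17 chromosomes. Of the PAF1-HA regions 375, or 63.0%, overlapped a SKIP-HA consensus region, which ranked 15 of 17, with 61.9% to 73.3% elsewhere. Of the SKIP-HA regions 379, or 52.0%, overlapped a PAF1-HA consensus region, which ranked eighth, with 48.8% to 58.5% elsewhere. Both percentages depended on the number of libraries. Without SKIP-HA replicate 1, 2 or 3 the PAF1-HA value fell to 41.3%, 42.5% and 39.8%. Without PAF1-HA replicate 1, 2 or 3 the SKIP-HA value fell to 33.9%, 31.0% and 33.2%.

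Neighbouring consensus regions at most 1 kb apart were stitched into domains of 2 or more. PAF1-HA had 120 domains, or 28.6 per Mb, the most of any chromosome, where the others ranged from 16.9 to 24.5. They held 53.3% of its consensus regions, which had rank 3 of 17, and 6.74% of the chromosome's length, the highest coverage of the 17. SKIP-HA had 143 domains, or 34.0 per Mb, which had rank 4, with 22.5 to 38.3 elsewhere. These held 52.8% of its consensus regions, which had rank 5. The median length was 1973.5 bp in PAF1-HA, which had rank 3 of 17, and 1875 bp in SKIP-HA, which had rank 10. The longest domains had ranks 10 and 13 among the longest of each chromosome. Most domains were pairs of regions, 71 of 120 and 89 of 143. Pairs made up 59.2% of PAF1-HA domains, against 66.0% elsewhere. Domains of 3 regions made up 26.7% of PAF1-HA domains, against 20.5% elsewhere. Of the SKIP-HA domains, 62.2% had 2 regions, 20.3% had 3 and 6.99% had 4, against 64.8%, 21.25% and 7.89% elsewhere. SKIP-HA domains of 5 and of 6 regions, only 10 and 5 in number, made up 6.99% and 3.50%, against 3.83% and 1.27%. A SKIP-HA domain overlapped 65 of the 120 PAF1-HA domains (54.2%), which ranked 16 of 17. Leaving out any 1 library of the line lowered the number of PAF1-HA domains to 49 to 57 and that of SKIP-HA domains to 56 to 64.

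The longest PAF1-HA domain ran from 3203949 to 3211265 (7317 bp, 8 consensus regions). PAF1-HA libraries had 8, 9 and 7 peaks in it and SKIP-HA libraries 5, 5 and 6, and SKIP-HA domains covered 62.9% of it. The second, at 1005376 to 1011125 (5750 bp), is the compact block without SKIP-HA peaks described above, with 5, 6 and 9 PAF1-HA peaks and 0 SKIP-HA peaks in each library. The third, at 1657614 to 1662973 (5360 bp), was covered to 78.5% by SKIP-HA domains. The fourth, at 1494891 to 1500184 (5294 bp), met no SKIP-HA domain although SKIP-HA libraries had 2, 3 and 4 peaks in it. The fifth, at 3654913 to 3659889 (4977 bp), was covered to 99.7%.

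The longest SKIP-HA domain ran from 1472530 to 1480169 (7640 bp, 6 consensus regions). It held 6 peaks in each SKIP-HA library and 6, 6 and 5 in PAF1-HA replicates 1, 2 and 3, and PAF1-HA domains covered 39.4% of it. The second, at 3653481 to 3659875 (6395 bp), is the counterpart of the fifth PAF1-HA domain, with 8, 7 and 7 SKIP-HA and 5, 8 and 6 PAF1-HA peaks. The third, at 3072905 to 3079287 (6383 bp), had 48.0% of its length in PAF1-HA domains, and the fifth, at 3607809 to 3613728 (5920 bp), had 20.6%. The fourth, at 1765948 to 1771952 (6005 bp), lay in the window that leaned furthest to SKIP-HA and met no PAF1-HA domain. SKIP-HA libraries had 5, 7 and 5 peaks in it and PAF1-HA libraries 2, 1 and 2.

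Domains took up the most length in the window with the most peaks. At 3.6 to 3.7 Mb there were 8 domains of each line, with 20.5 kb of PAF1-HA and 29.4 kb of SKIP-HA domains, and at 0.5 to 0.6 Mb there were 8 and 7, with 18.01 and 14.6 kb. In the first 100 kb PAF1-HA had 9 domains and SKIP-HA 8. At 0.7 to 0.8 Mb PAF1-HA had 5 domains and SKIP-HA 2, and at 1.7 to 1.8 Mb PAF1-HA had 1 and SKIP-HA 4. At the right end, between 4.1 and 4.2 Mb, PAF1-HA had 1 domain and SKIP-HA none.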

How the data were processed

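Deposited by the authors as 1 peak list per library, the lists of 3 PAF1-HA and 3 SKIP-HA replicates were taken unchanged. Each line gives the start and end of 1 peak, a position with no score, count, fold or p-value. The submitters' processing notes name Bowtie2 and HOMER for all 9 samples and, for replicates 1 and 2 of the tagged lines, MACS3, without version or role. Build, threshold and control library were not given in the sources used here. No genome of the files' build was used, so genes and sequences were not analysed here. Coordinates are 1-based in the files' own build. A gene table whose fit to these coordinates was not established was not used.

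Chromosome 14, its windows and all lists and rules were chosen with earlier results of these data known. Named windows, regions and domains follow rules: the 5 densest and sparsest windows, the 5 leaning furthest each way, the closest centres (10 regions in all libraries, 5 for each line alone), every region in all libraries in the last 50 kb, the 5 longest domains and peak-free stretches. Stretches free of one line's peaks and the widest regions were added after the data were seen. Peaks sharing at least 1 bp were joined, and windows counted peak centres. Libraries were compared by exact permutation tests, given only for clustering and similarity. Shares per 100 kb window (0.5 added to each number, at least 5 peaks on average) were fitted with limma 3.58.1 in R 4.3.3 with a variance trend over the mean, chosen after the data were seen, and Benjamini-Hochberg adjustment over 1068 windows at 0.05. Code was tested on simulated data. Python 3.11.15, numpy 2.4.6, pandas 2.3.3, scipy 1.17.1 and matplotlib 3.10.9 were used. Alternatives left out single libraries, replicate 3 or changed overlap, window, stitching and fit settings.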

Additional observations from a re-analysis of the deposited data

How the results depend on the processing

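Numbers and shares of peaks and the similarity of libraries kept their direction under every alternative run. Regions in all 6 libraries numbered 124, and 95 with an overlap of at least 200 bp. Regions in all remaining libraries numbered 138 to 152 without 1 library and 178 with replicates 1 and 2 only, since fewer libraries were then required. Without 1 library, the difference in peaks lay between 126.8 and 229, in shares between -0.339 and -0.220 and in similarity between 0.0181 and 0.0297. Clustering within 1 kb changed sign, between -1.24 and 1.54 without 1 library, and was 0.925 at 2 kb; the cause was not tested.

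Counts that require agreement among libraries moved with the number of libraries required, by construction. Without 1 library, PAF1-HA-only regions lay between 35 and 46, SKIP-HA-only regions between 53 and 94, overlapped consensus regions 39.8% to 67.2% for PAF1-HA and 31.0% to 58.6% for SKIP-HA, and domains 49 to 57 and 56 to 64. With replicates 1 and 2 only they were 66, 100, 47.3%, 40.7%, 55 and 56. With peaks in 3 of 3 libraries, overlap was 46.1% and 38.3% and domains numbered 35 and 36. With an overlap of at least 200 bp the percentages were 50.47% and 41.8%.

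Called windows on chromosome 14 numbered 1, and between 0 and 4 without 1 library (4 without PAF1-HA replicate 3, 0 without PAF1-HA replicate 2 or SKIP-HA replicate 2). They numbered 0 with 50 kb windows, 2 where at least 10 peaks on average were required and 2 with median scaling. The window at 0.7 to 0.8 Mb was called in 12 of 14 settings on the same windows and that at 1.7 to 1.8 Mb in 3 of 14. Both windows were singled out by this same contrast, and the settings reuse the same lists. These tallies, and the adjusted p-values that follow, are therefore descriptions. With windows shifted by 50 kb neither was called: the log2 ratio of -1.06 became -0.33 and -0.55 (limma, adjusted p = 0.486 and 0.0619) in the windows that share its bases, and 0.78 became 0.47 and 0.35 (adjusted p = 0.255 and 0.362). The 1 window of chromosome 14 called there lay at 1.25 to 1.35 Mb. Over all chromosomes 2 windows were called, against 26 with the replicate block, 15 with shifted windows (6 higher in SKIP-HA, 9 in PAF1-HA) and 6 without the variance trend (5 and 1). With the replicate block, 4 windows of chromosome 14 were called. The labels do not say whether same-numbered libraries were prepared together, although replicate 3 of each line is described in other fields. Deviations of same-numbered libraries correlated at -0.00353, -0.0322 and 0.00226 over 1068 windows. With 3 libraries per line these values do not settle whether they share more than a number. With 3 against 3 libraries the block cannot change the differences in peaks (179), shares (-0.275) and clustering (-0.0835). For clustering the exact permutation p was 1 with and without the block. Peak lists carry no depth, which limits every count given here.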
